A study of Homo sapiens with 8 samples.

Results

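HCC827 and HCC4006 are established human lung adenocarcinoma cell lines with activating mutations of EGFR, the epidermal growth factor receptor, and both are sensitive to EGFR inhibitors such as gefitinib. The comparison described here is between their untreated states, HCC827 DMSO against HCC4006 DMSO, where DMSO is the solvent control. Its members are the gene rows that the deposited tables list above 0 in all 4 DMSO libraries after matching by gene name and locus. There were 15440 such rows of 48405 in each table.

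Polyadenylated RNA had been sequenced from 8 libraries in 4 groups of 2: HCC827 DMSO, HCC827 made resistant to gefitinib, HCC4006 DMSO and HCC4006 made resistant to gefitinib. All cultures were kept in RPMI-1640 with 10% serum, and the resistant populations grew in 3 µM gefitinib. No label says whether replicate libraries were grown as independent cultures; the p-values thus cover the spread between these libraries, which may be technical. Each line stands in a table of its own, which may have been normalized separately, so a difference between the lines and one between the tables cannot be told apart; a factor common to a whole column is removed by the rescaling described next.

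Levels are FPKM, which count sequenced fragments relative to transcript length and library size, divided by a median-ratio factor so that the typical row is equal in the 4 libraries. These factors lay between 0.973 and 1.035. Differences are log2(rescaled FPKM + 0.5), HCC827 minus HCC4006, which understates the change of low genes. Depth is unknown, and many rows are listed at 0 where a failed estimate cannot be told from absent RNA: the ribosomal protein genes RPL15 and RPS9 are at 0 in both HCC4006 DMSO libraries, and RPL30 in both HCC827 DMSO libraries.

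EGFR is a receptor tyrosine kinase that, when bound by ligands such as epiregulin or amphiregulin or when mutated, drives the RAS-ERK and PI3K cascades. ERK signalling induces its own inhibitors, among them the Sprouty proteins and the phosphatase DUSP6. Lung adenocarcinoma cells are also described by their lineage, through the factor NKX2-1, and by their place between epithelial and mesenchymal states, marked by E-cadherin (CDH1) and by vimentin (VIM) and N-cadherin (CDH2). HCC827 is known for extra copies of EGFR; DNA was not measured here.

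Among the 15230 rows with a mean of at least 0.5 rescaled FPKM, 481 were called different (3.16%) by limma at an adjusted p below 0.05. Of these, 215 were higher in HCC827 (1.41%) and 266 were lower (1.75%). The smallest called difference was 1.58 in size on the log2 scale. Libraries of one line also differed: the median absolute log2 difference between libraries A and B was 0.36 in HCC827 and 0.55 in HCC4006, against a median absolute line difference of 0.60. The HCC827 libraries lay wholly above or wholly below the HCC4006 libraries in 8523 rows (56.0%), 4260 above (28.0%) and 4263 below (28.0%).

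The number of calls depended on which libraries were in the fit. With 1 library of a line left out, its lone library is assumed to vary like the pair of the other line, whose spread is then the one used. Without HCC827 library A limma called 0 rows, with 761 higher and 1146 lower at an unadjusted p below 0.05, and without HCC827 library B it called 8: ALDH1A3, AXL, BEX4, CREB3L1, GAS6, SMARCA2 and TRIM29, which were lower, and CXCL5, which was higher. Without HCC4006 library A there were 593 calls, and without HCC4006 library B 2228. With the spread estimated over all 8 libraries there were 1617 calls of 14457 rows (11.2%), 694 higher (4.8%) and 923 lower (6.38%), and 427 of the 481 were among them.

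**Figure D1:**
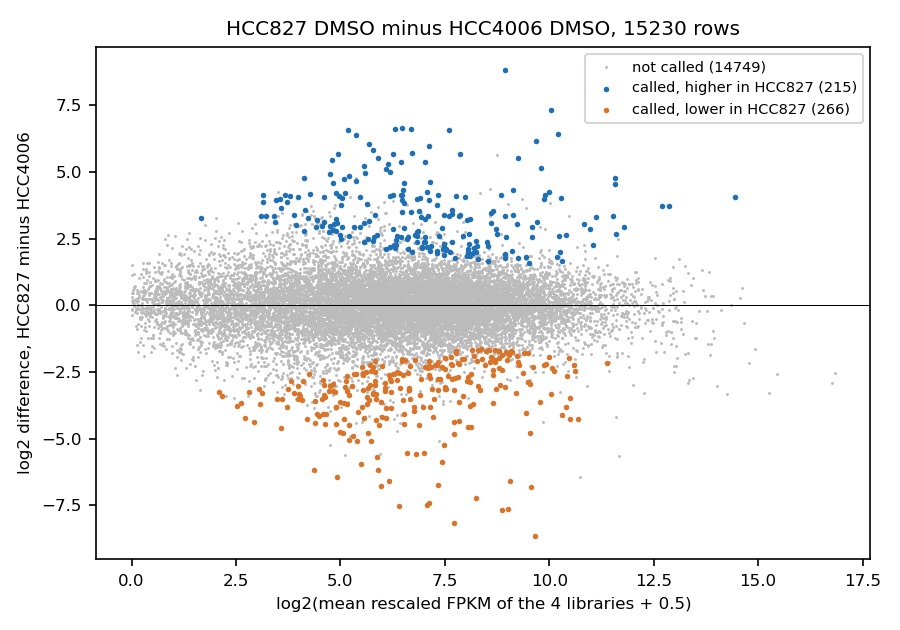
Each point is one of 15230 rows; the x axis is log2 of the mean rescaled FPKM of the 4 DMSO libraries plus 0.5, and the y axis the log2 difference, HCC827 minus HCC4006. The 215 rows called higher and 266 called lower in HCC827 lie at least 1.58 from 0 and are found across the range of levels.

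Receptors and ligands of the EGFR family were higher in HCC827 where they were called. EGFR itself had 5278 and 5391 rescaled FPKM in HCC827 and 1066 and 650.5 in HCC4006 (log2 difference 2.68, SE 0.38, limma adjusted p = 0.0319). Every HCC827 value lay above every HCC4006 value. The partner receptor ERBB2 had 298 and 159 rescaled FPKM in HCC827 and 126 and 120 in HCC4006, and its log2 difference of 0.82 did not pass the test (limma adjusted p = 0.284). ERBB3, which signals through ERBB2, had 293 and 117 in HCC827 and 212 and 108 in HCC4006, and the lines overlapped.

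EREG, which encodes the ligand epiregulin, had the largest positive difference of all named genes. It had 759 and 1202 rescaled FPKM in HCC827, against 2.67 and 0.929 in HCC4006 (log2 difference 8.81, SE 0.54, limma adjusted p = 0.0094). Of 11 ligand genes 7 were measured in all 4 libraries, EREG was the one called, and the median difference of the 7 was 1.70. The share called higher over all rows was 1.41%. AREG, the amphiregulin gene, had 436 and 602 rescaled FPKM in HCC827 and 362 and 67.8 in HCC4006, with no overlap but a log2 difference of 1.70 that did not pass the test (limma adjusted p = 0.248). HBEGF was the one measured ligand whose HCC827 values, 15.4 and 60.6, both lay below those of HCC4006, 64.2 and 63.7, and it was not called either.

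Some genes beside EGFR on the short arm of chromosome 7 were higher in HCC827 too. SEC61G, a subunit of the protein-conducting channel of the endoplasmic reticulum, shares its row with a non-coding gene, and this row had 43300 and 40480 rescaled FPKM in HCC827, against 1968 and 3198 in HCC4006 (log2 difference 4.06, SE 0.48, limma adjusted p = 0.0218). VOPP1 differed by 3.35 (SE 0.43) and LANCL2 by 3.03 (SE 0.53), with limma adjusted p of 0.0253 and 0.0449. Of 8 measured rows in the list of neighbours 3 were called, all higher in HCC827, 7 lay wholly above HCC4006, and the median was 1.39, against 1.41% called higher, 28.0% wholly above and a median of 0.02 over all rows. EGFR lies at chr7:55086713-55324313 (hg19), and the 3 called neighbours start within 0.417 Mb of its start. In the 50 to 60 Mb segment of chromosome 7 as a whole, 4 of 40 rows were called higher and the median was 0.14.

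Among genes that report ERK activity, MYC and SPRY1 were higher in HCC827. MYC, a transcription factor that drives growth, had 987 and 1157 rescaled FPKM in HCC827 and 64.8 and 42.8 in HCC4006 (log2 difference 4.33, SE 0.35, limma adjusted p = 0.0105). SPRY1, a Sprouty inhibitor of the pathway, had 220 and 113 in HCC827 and 17.2 and 4.14 in HCC4006 (log2 difference 4.13, SE 0.73, limma adjusted p = 0.0461). These were the 2 calls among 19 genes, 11 of which lay wholly above HCC4006 and 1 below, and the list's median was 1.18. Over all rows 1.41% were called higher, and 28.0% lay wholly above and 28.0% wholly below. DUSP6 had 487 and 381 rescaled FPKM in HCC827 and 37.3 and 109 in HCC4006, a log2 difference of 2.75 that did not pass the test (limma adjusted p = 0.0573).

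AXL and its ligand ran the other way. AXL, a receptor tyrosine kinase known for its part in resistance to EGFR inhibitors, had 8.84 and 16.9 rescaled FPKM in HCC827, against 1051 and 1969 in HCC4006 (log2 difference -6.82, SE 0.48, limma adjusted p = 0.0094). GAS6, the gene of its ligand, had 2.10 and 5.56 in HCC827 and 486 and 718 in HCC4006 (log2 difference -7.22, SE 0.54, limma adjusted p = 0.0094). Receptor and ligand were thus both low in HCC827 and both high in HCC4006. They were the 2 calls among 15 measured genes of that list, whose median was -0.30, where 1.75% of all rows were called lower. MET, the receptor of hepatocyte growth factor, had 2481 and 2457 rescaled FPKM in HCC827 and 1187 and 1329 in HCC4006, a log2 difference of 0.97 that was not called (limma adjusted p = 0.148). The ligand gene HGF was listed at 0 in all 4 libraries.

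Of the FGF receptors, FGFR4 was called higher in HCC827 (155 and 177 rescaled FPKM, against 34.05 and 22.3 in HCC4006) and FGFRL1, a receptor that lacks a kinase domain, was called lower (60.4 and 57.5, against 269 and 252 in HCC4006). The row of FGF2, a ligand of these receptors, is joined with another gene and had 4.66 and 22.6 in HCC827 and 91.3 and 101 in HCC4006. Its log2 difference of -3.14 did not pass the test (limma adjusted p = 0.0799), though it did with the spread taken over all 8 libraries (limma adjusted p = 0.0228). FGFR1 has repeated rows in the tables and was not tested. The deposited FPKM of its non-zero row were 4.44 and 2.65 in HCC827 DMSO, against 21.1 and 68.1 in HCC4006 DMSO.

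**Figure D2:**
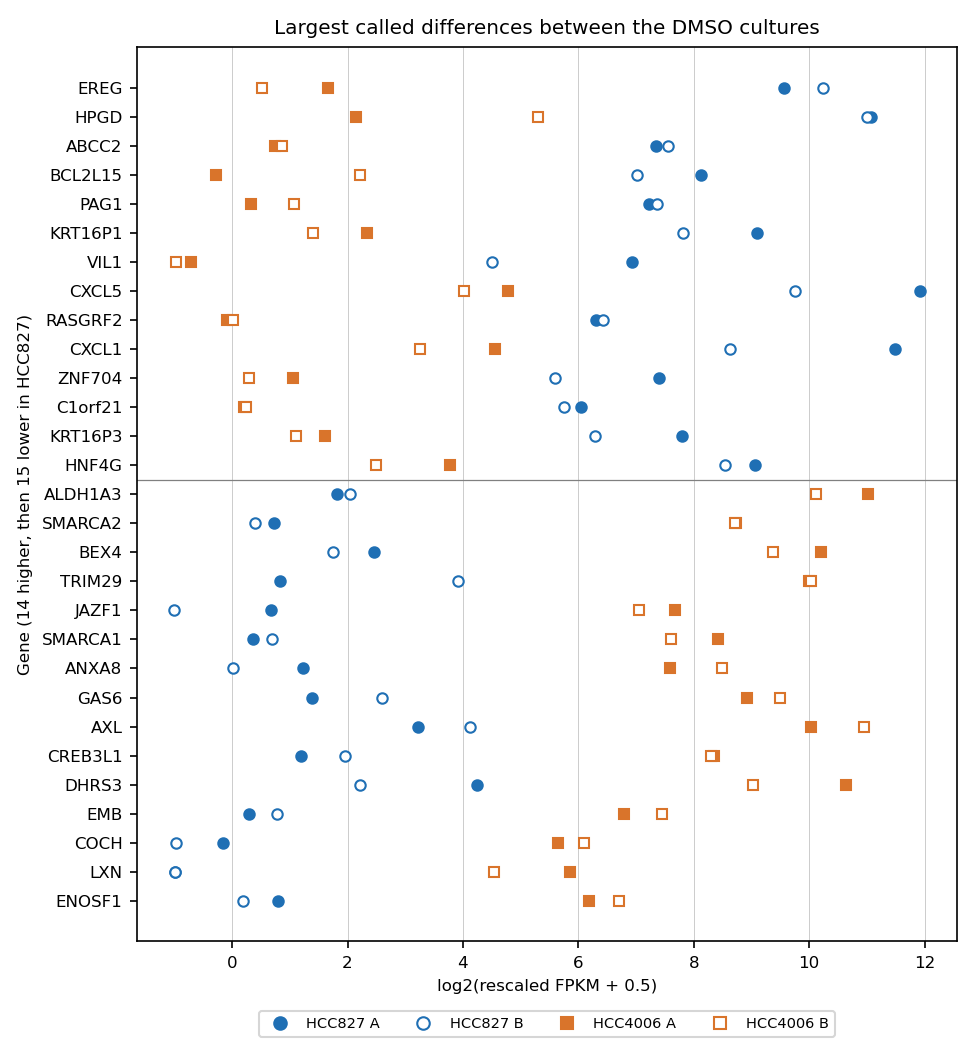
Each line is one of 29 genes with the largest called differences, 14 higher and then 15 lower in HCC827; the x axis is log2(rescaled FPKM + 0.5), with blue circles for the HCC827 libraries, orange squares for the HCC4006 libraries and filled symbols for library A. In each gene the libraries of the lines do not overlap; this follows from the choice of called rows.

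Of the inflammatory cytokine and NF-kB genes, CXCL5, CXCL1 and CSF2 were higher in HCC827. CXCL5, a neutrophil-attracting chemokine, had 3861 and 859 rescaled FPKM in HCC827 and 26.8 and 15.6 in HCC4006 (log2 difference 6.44, SE 0.72, limma adjusted p = 0.0191). CXCL1 had 2873 and 395 in HCC827 and 23.1 and 9.10 in HCC4006 (log2 difference 6.15), and CSF2, the gene of GM-CSF, differed by 4.15. These 3 were the calls among 17 measured cytokine and NF-kB genes, 11 of which lay wholly above HCC4006 and 1 below, and the median was 2.07, where 1.41% of all rows were called higher, 28.0% lay wholly above and 28.0% wholly below. IL8, the gene of interleukin 8, had 1443 and 241 in HCC827 and 37.3 and 3.16 in HCC4006 and was not called (limma adjusted p = 0.0732).

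Interferon-stimulated genes were mostly on the same side, with fewer calls. IFI44 was the 1 call of 24, with 2200 and 840 rescaled FPKM in HCC827 and 154.5 and 155 in HCC4006. Its log2 difference was 3.13 (limma adjusted p = 0.0368). Of the 24 differences 23 were positive, with a median of 1.34, and 13 genes lay wholly above HCC4006 and 1 below. Among all rows 1.41% were called higher, 28.0% lay wholly above and 28.0% wholly below, and the median was 0.02. Both lists also differed between the libraries of a line. HCC827 A was above HCC827 B in 24 of 24 interferon-stimulated genes (median log2 1.302) and in 16 of 17 cytokine genes (median log2 1.36). HCC4006 A was above HCC4006 B in 13 of the 24 (median log2 0.08) and in 12 of the 17 (median log2 0.76). The part of single libraries in these line differences was not tested. Over the 4 pairings of an HCC827 with an HCC4006 library, the median ran between 0.52 and 2.07 for the interferon-stimulated genes and between 0.65 and 2.83 for the cytokine genes.

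Other large positive differences were in genes of enzymes, transporters and regulators. HPGD, which inactivates prostaglandins, had 2144 and 2058 rescaled FPKM in HCC827 and 3.95 and 39.1 in HCC4006. VIL1, which encodes the microvillus protein villin, had 121 and 22.2 in HCC827 and 0.112 and 0.00768 in HCC4006. HNF4G, which encodes a nuclear receptor, had 533 and 373 in HCC827 and 13.2 and 5.14 in HCC4006. Their log2 differences were 7.31, 6.56 and 5.67. ABCC2, an export pump for conjugated compounds, had 162 and 187 in HCC827 and 1.18 and 1.32 in HCC4006 (log2 difference 6.64, SE 0.44, limma adjusted p = 0.0094).

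The remaining genes of the largest positive differences had varied roles. BCL2L15 encodes a BCL2-family protein, PAG1 an adaptor that holds SRC-family kinases in check and RASGRF2 an exchange factor for RAS. Their log2 differences were 6.60, 6.60 and 6.39. ZNF704 and C1orf21 differed by 5.83 and 5.68. The keratin pseudogenes KRT16P1 and KRT16P3, at 6.58 and 5.68, share sequence with KRT16 and are uncertain.

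The largest negative difference was in ALDH1A3, an enzyme that makes retinoic acid, with 3.02 and 3.64 rescaled FPKM in HCC827, against 2082 and 1116 in HCC4006 (log2 difference -8.64, SE 0.43, limma adjusted p = 0.0094). DHRS3, which reduces retinaldehyde back to retinol, had 18.4 and 4.13 in HCC827 and 1597 and 518.5 in HCC4006 (log2 difference -6.61). Both libraries of HCC827 were below both of HCC4006 in each of these enzyme genes.

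A pair of chromatin remodelling ATPases was low in HCC827. SMARCA2, the BRM ATPase of SWI/SNF complexes, had 1.16 and 0.817 rescaled FPKM in HCC827, against 425 and 420 in HCC4006 (log2 difference -8.16, SE 0.43, limma adjusted p = 0.0094). SMARCA1, an ATPase of ISWI complexes, had 0.785 and 1.11 in HCC827 and 342 and 194 in HCC4006 (log2 difference -7.49, SE 0.50, limma adjusted p = 0.0094). SMARCA4, the other SWI/SNF ATPase, added after these values were seen, was measured in both lines, with a log2 difference of 0.65 that was not called (limma adjusted p = 0.298).

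Further genes among the largest negative differences were TRIM29, a ubiquitin ligase of squamous epithelia (-7.64), BEX4 (-7.69), JAZF1 (-7.52), the annexin gene ANXA8 (-7.42), CREB3L1, a transcription factor of the secretory pathway (-6.75), EMB, a cell adhesion protein (-6.58), COCH (-6.45), LXN, a carboxypeptidase inhibitor (-6.19), and ENOSF1 (-5.95). Where one line is near 0 the size depends on the pseudocount: between pseudocounts of 0.1 and 1 the log2 difference ran between -8.89 and -6.83 for JAZF1, between -7.98 and -5.64 for COCH, between -8.45 and -5.21 for LXN and between 8.43 and 5.65 for VIL1.

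Several mesenchymal genes, vimentin among them, were lower in HCC827, while the E-cadherin values of the lines overlapped. VIM had 149.5 and 351 rescaled FPKM in HCC827, against 2011 and 3234 in HCC4006 (log2 difference -3.47, SE 0.50, limma adjusted p = 0.0322). FBN1, fibrillin, differed by -5.05, FSTL1 by -4.26 and SPARC, a collagen-binding matrix protein, by -4.25. With VIM they were the 4 calls among 14 measured genes, 8 of which lay wholly below HCC4006 and 1 above, and the median was -1.62. Over all rows 1.75% were called lower, and 28.0% lay wholly below and 28.0% wholly above. CDH2, the N-cadherin gene, was listed at 0 in both HCC827 DMSO libraries and had 326 and 355 deposited FPKM in HCC4006 DMSO.

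CDH1 had 1281 and 1111 rescaled FPKM in HCC827 and 1499 and 929 in HCC4006, and its log2 difference of 0.02 was not called (SE 0.37, limma adjusted p = 0.986). Among 22 measured junction genes the 1 call was DSC2, a desmosomal cadherin, where 1.41% of all rows were called higher. DSC2 was higher in HCC827 (219 and 237, against 54.9 and 56.7 in HCC4006). The junction list had 6 of 22 genes wholly above HCC4006 and 6 below, near the 28.0% of all rows found on either side, with a median of -0.13. EMT transcription factors gave 0 calls by limma among 4 measured genes, with 0 at an unadjusted p below 0.05. ZEB1 was low in both lines, at 5.41 and 7.84 rescaled FPKM in HCC827 and 3.88 and 7.31 in HCC4006. TWIST1 was listed at 0 in both HCC827 libraries and had 78.0 and 72.0 deposited FPKM in HCC4006.

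COL4A1 and COL4A2, the basement membrane collagen chains, were called lower in HCC827 (log2 differences -2.80 and -2.89). The row of COL17A1, a hemidesmosomal collagen, was called higher (4.11). These were the calls among 12 measured collagens with a median of -1.37, where 1.75% of all rows were called lower and 1.41% higher. COL5A1 was listed at 0 in both HCC827 libraries and had 1282 and 778 deposited FPKM in HCC4006. Of the epithelial integrins, ITGB6 was called higher (2.30) and ITGB4 lower (-2.43). PLAT, tissue plasminogen activator, was called lower (-4.57) and KLK6, a kallikrein protease, higher (4.14). Among 10 measured YAP and TEAD targets, AXL and ANKRD1 (-4.48) were called lower, 7 lay wholly below HCC4006 and 2 above, and the median was -1.05, where 1.75% of all rows were called lower and 28.0% lay wholly on either side.

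Of the lung lineage and alveolar genes, the NKX2-1 row and SFTA2 were higher in HCC827. NKX2-1, the lineage factor, shares a row with SFTA3, and this row had 428 and 550 rescaled FPKM in HCC827 and 120 and 121 in HCC4006 (log2 difference 2.00, SE 0.31, limma adjusted p = 0.0362). SFTA2, a surfactant-associated gene, had 850 and 880 in HCC827 and 27.2 and 86.1 in HCC4006 (log2 difference 4.14, SE 0.56, limma adjusted p = 0.0286). These were the 2 calls among 11 rows with a median of -0.15, which included FOXA1, FOXA2 and GATA6 without a call. The share called higher over all rows was 1.41%. NAPSA, napsin A, had 829 and 540 deposited FPKM in HCC827, against 3.14 and 0 in HCC4006. The surfactant gene SFTPB had 1.002 and 9.37 deposited FPKM in HCC827 and 0 in both HCC4006 libraries, and SLC34A2, an alveolar phosphate transporter, had 21.8 and 0 in HCC827 and 47.7 and 0 in HCC4006. WFDC2, an airway secretory protein, was lower in HCC827 (30.4 and 14.49 rescaled FPKM, against 668.5 and 394 in HCC4006, log2 difference -4.58, limma adjusted p = 0.0174).

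Drug and redox genes moved in both directions. GSTP1, a glutathione transferase, was called higher in HCC827 (log2 difference 2.93), ALDH1A3 and ALDH3B1 lower, and the median of the 24 measured genes was 0.11. Both called transporters, ABCC2 and ABCG2 (2.91), were higher in HCC827. They were the 2 calls among 11 measured transporters with a median of 0.20, of which 3 lay wholly above HCC4006 and 2 below. BID, a pro-apoptotic BCL2-family gene, was called lower (-3.82), the 1 call among 17 measured genes of its list. SLC2A3, a glucose transporter, and EGLN3, an oxygen-sensing hydroxylase, were called higher (5.24 and 3.36). They were the 2 calls in a glycolysis and hypoxia list of 24 measured genes with a median of 0.08. Over all rows 1.41% were called higher and 1.75% lower, and 28.0% lay wholly above and 28.0% wholly below.

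Calls among WNT genes went in both directions. FZD7 (-4.41), DKK3 (-3.53) and WNT5A (-2.98) were called lower and FZD3 (2.76) higher among 17 measured WNT genes, with a median of -0.64. The shares over all rows were 1.75% called lower and 1.41% called higher. WNT5A was not called with the spread taken over all 8 libraries (limma adjusted p = 0.0513). JAG2, a Notch ligand, was called higher (2.59), and EPHB2, an ephrin receptor, lower (-2.04). GRHL1, an epithelial transcription factor, was called higher (2.47). Among keratins KRT15 was called higher (3.34) and KRT17 lower (-3.37). ERAP2, a peptidase of antigen presentation, was called lower (-3.61). The ribosomal protein gene RPL7 was called higher (1.81) while the median of 38 ribosomal rows was -0.37. The MAGED4 row, joined with SNORA11, was called higher (3.99) among 3 measured rows of 32 cancer testis genes. Of the 32, 21 were listed at 0 in all 4 libraries. A further 7 were at 0 in both HCC827 libraries but not in both of HCC4006, and the reverse held for 0. Over all rows, 807 were at 0 in both HCC827 libraries and 597 in both of HCC4006. Those counts ask for a mean of at least 10 FPKM in the other line, which was not asked of the 7. The count of 7 was not tested, and a 0 may be a failed estimate.

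Lists of housekeeping programmes gave 0 calls by limma and differed between the libraries of a line. Cell cycle and replication genes had a median of 0.78 over 27 genes with 2 at an unadjusted p below 0.05, both higher in HCC827, and HCC4006 A lay below HCC4006 B in all 27 (median log2 -1.81). Cholesterol and fatty acid genes had a median of 0.70 over 22 genes, 3 of them higher at an unadjusted p below 0.05, and unfolded protein and heat shock genes one of -0.89 over 23, with 2 higher and 1 lower. The 4 pairings of libraries ran through 0 in each of these 3 lists, for example between -0.14 and 2.00 for the cell cycle. In HCC827, library A was above B in 3 of the 22 cholesterol and fatty acid genes (median log2 -0.60). In HCC4006 it was above B in 1 of the 22 (median log2 -1.43). The part of single libraries in these medians was not tested.

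**Figure D3:**
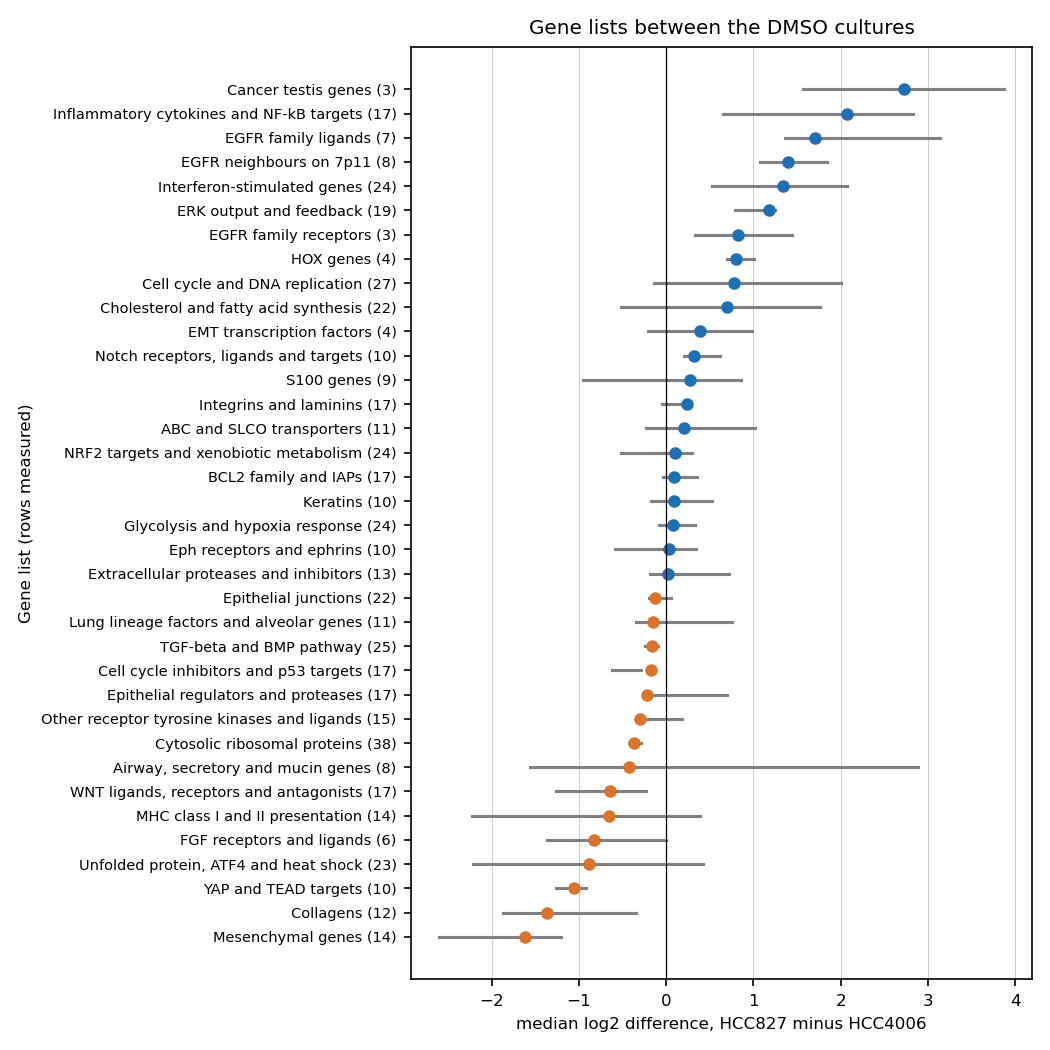
Each line is a gene list with at least 3 measured rows, ordered by the median log2 difference, HCC827 minus HCC4006 (point, blue above 0 and orange below); the grey bar spans the medians of the 4 pairings of one HCC827 with one HCC4006 library and need not hold the point. Cytokine genes (2.07) and EGFR ligands (1.70) lie near the top and mesenchymal genes (-1.62) at the bottom.

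Position added a grouping that the lists had not named; the segments were chosen after the values were seen and are described without a test. On the long arm of chromosome 8, between 70 and 90 Mb (hg19), 16 of 64 rows were called higher in HCC827 (25%, against 1.41% of all rows) and 1 was lower. Their log2 differences ran between 1.81 and 6.60. They included PAG1, ZNF704 and HNF4G, named above, the mitochondrial ribosomal gene MRPS28 (4.24), the zinc finger gene ZBTB10 (4.64), the ESCRT gene CHMP4C (4.07), the fatty acid binding protein gene FABP5 (4.04), the sorting nexin SNX16 (3.997), LY96, a Toll-like receptor partner (3.76), and the retinol dehydrogenase RDH10 (3.21).

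The calls in that segment were scattered among rows without a call: the median over its 64 rows was 0.62, and 33 lay wholly above HCC4006 and 11 below, against 28.0% of all rows on either side. Counting each locus once, 9 of 22 loci between 80 and 90 Mb were called higher, the largest share among 278 windows of 10 Mb. Elsewhere on chromosome 8, 2 of 256 rows below 70 Mb and 13 of 218 above 90 Mb were called higher, MYC among the last. By locus, 5 of 21 were called higher between 100 and 110 Mb (23.8%) and 6 of 26 between 70 and 80 Mb (23.1%). Of the 16 rows, 15 were also higher in HCC827 between the resistant cultures. This was a similar share to the 184 of 197 among all rows called higher and above 0 in all 8 libraries. The gap changed in 2 of the 16 by limma's interaction term (adjusted p below 0.05). For PAG1 the log2 difference was 6.60 between the DMSO cultures and 0.996 between the resistant ones, and for ZNF704 5.83 and -0.35.

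**Figure D4:**
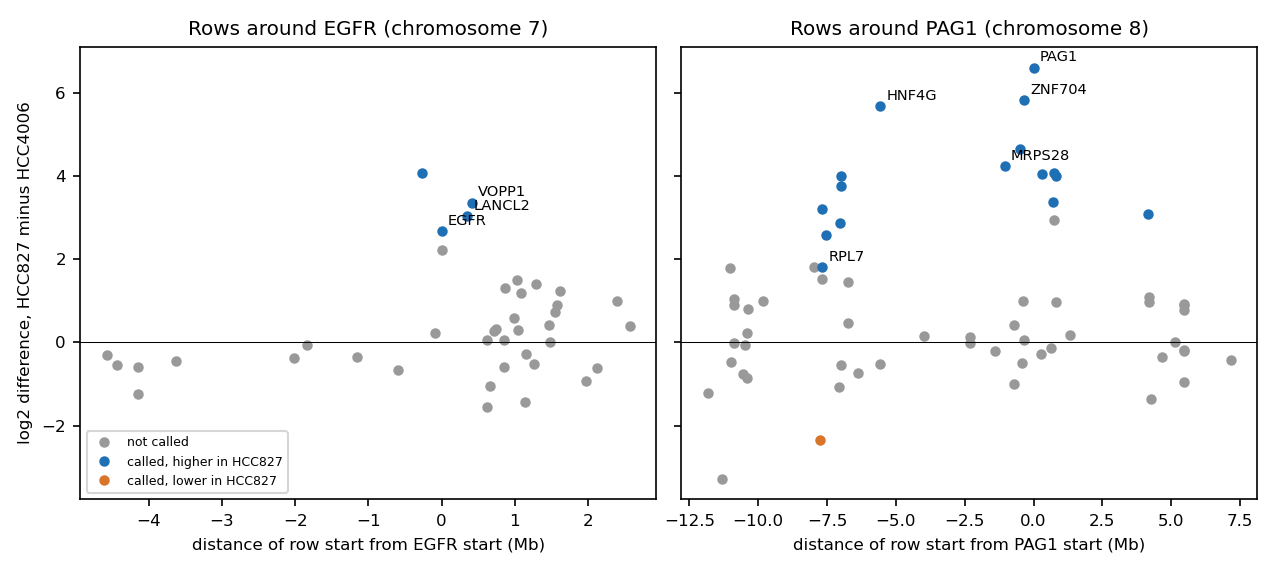
Points are gene rows; the x axis is the distance of a row's start from that of EGFR (left, chromosome 7) or PAG1 (right, chromosome 8) in Mb, and the y axis the log2 difference, HCC827 minus HCC4006. Blue marks rows called higher in HCC827, orange rows called lower; 4 of 40 rows at left and 16 of 64 at right are blue.

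The tumour suppressor locus of the short arm of chromosome 9, also picked after its values were seen, was listed differently in the lines. CDKN2A, an inhibitor of cell cycle kinases, had 998 and 1423 deposited FPKM in HCC827 DMSO and 0 in both HCC4006 DMSO libraries, and CDKN2B had 35.9 and 71.8 in HCC827 and 0 in both of HCC4006. Both genes were also at 0 in both resistant HCC4006 libraries, but so was RPS9, and RPL30 was at 0 in all 4 HCC827 libraries, so a repeated 0 does not tell a failed estimate from absent RNA. The MTAP row of the same locus is joined with the gene CDKN2BAS, so its level cannot be assigned to MTAP alone. This row was measured in both lines and called higher in HCC827 (log2 difference 2.17, limma adjusted p = 0.0293).

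Other genes were listed at 0 in one line only, and no fold is given for them. At 0 in both HCC827 DMSO libraries with a mean of at least 50 FPKM in HCC4006 there were 392 rows, and the reverse held for 342. Beside CDH2, TWIST1 and COL5A1, the first set held MMP2, a matrix protease, which was also at 0 in both resistant HCC827 libraries. The second held MUC13, a mucin, at 335 and 146 deposited FPKM in HCC827, and CCL20, a chemokine, at 1721 and 76.8 in HCC827. Mucin rows were found in both sets. The rows of MUC1 and MUC20, each joined with other genes, were at 0 in both HCC827 DMSO libraries. They had 2387 and 2250 (MUC1) and 755 and 129 (MUC20) deposited FPKM in HCC4006 DMSO. ITGA6, an integrin chain listed at 0 in both HCC4006 DMSO libraries, was measured in both resistant HCC4006 libraries.

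Cells of other types were checked by marker lists. Summed fibroblast markers were 44.1 and 50.9 FPKM in HCC827 and 122 and 71.7 in HCC4006, with 4 of 8 markers at 0 in all 4 libraries. Summed immune markers were 371 and 325 in HCC827 and 1192 and 355 in HCC4006, again with 4 of 8 at 0 in all 4 libraries. Of the other immune markers, 2 were measured in all 4 libraries and gave 0 calls. For each line, 1 more was at 0 in both of its libraries but not in both of the other line. Whether immune cells were present was not tested. Endothelial markers summed to 0 and 0 in HCC827 and 2.28 and 2.34 in HCC4006. The epithelial markers EPCAM, KRT8 and KRT19 were at 1529 deposited FPKM or above in all 4 DMSO libraries.

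The resistant cultures offer libraries that the choice of members did not use. Of the 481 rows called between the DMSO cultures, 431 were above 0 in all 8 libraries. Of these, 398 (92.34%) differed in the same direction between the resistant HCC827 and HCC4006 cultures, against 62.25% of all 14457 rows. The 2 shares are not like for like. Called rows were chosen for gaps of at least 1.58, while many of all rows have gaps near 0, where a sign is easily turned. The resistant libraries also stand in the same 2 tables, so a difference between the tables would repeat. The direction was kept by 184 of 197 rows higher in HCC827 and by 214 of 234 lower ones. The median absolute difference of the 431 rows was 3.06 between the DMSO cultures and 1.73 between the resistant ones; the first value is the one that chose these rows, so the 2 are not independent measures of a change.

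EREG and AXL kept their gaps: the log2 difference between the resistant cultures was 9.03 for EREG and -7.85 for AXL. EGFR values of the lines overlapped there, with 1673 and 433 rescaled FPKM in resistant HCC827 and 776 and 745 in resistant HCC4006 (log2 difference 0.16), though the change of its gap was not called (limma adjusted p = 0.153). Over all rows the gap between the lines changed in 224 of 14457 rows (1.55%), 43 of them among the 431. That count of 224 ran between 18 and 1278 when one library was left out.

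CDH1 was not called between the DMSO cultures and far apart between the resistant ones. Resistant HCC827 had 1842 and 1156 rescaled FPKM of CDH1, against 3.05 and 3.26 in resistant HCC4006, so that the gap between the lines was larger by 8.63 on the log2 scale than between the DMSO cultures (limma adjusted p = 0.000262). WFDC2 turned round: it was lower in HCC827 between the DMSO cultures, and had 869 and 1294 rescaled FPKM in resistant HCC827, against 7.95 and 5.17 in resistant HCC4006. ABCG2, higher in HCC827 DMSO, had 2.70 and 4.40 in resistant HCC827 and 75.8 and 64.3 in resistant HCC4006.

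**Figure D5:**
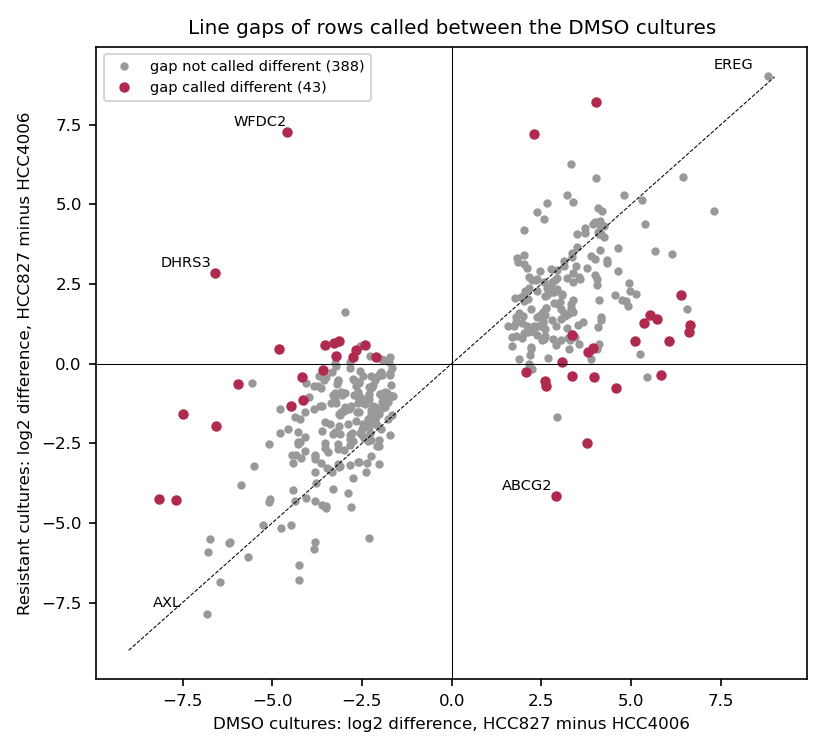
Each point is one of the 431 rows called between the DMSO cultures and above 0 in all 8 libraries; the x axis is the log2 difference, HCC827 minus HCC4006, between the DMSO cultures and the y axis that between the resistant cultures, with the dashed line where both are equal. In 398 rows the signs match, and red marks the 43 rows whose gap differed.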

How the data were processed

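The authors deposited FPKM per gene in 2 tables, 1 per line. Per the submitters' processing notes, build hg19 and the tools Cuffdiff, Cufflinks 1.3.0 and TopHat 1.4.1 were used; the annotation is not given in the sources used here. Columns carry letters A and B that no label ties to the replicate numbers, so they name libraries only; 0 per-sample columns were left unused. Depth is unknown, and no counting interval can be given.

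Rows were matched by gene and locus. Left out were 1126 rows whose pair is repeated within a table, which leaves 47279. Rows above 0 in the 4 DMSO libraries were rescaled by median ratio, and log2(FPKM + 0.5) of the 15230 rows with a mean of at least 0.5 was tested with limma 3.58.1 (R 4.3.3; lmFit, eBayes with trend), 2 libraries against 2. P-values were adjusted by Benjamini-Hochberg across every row of a fit, and rows were called below 0.05. The change of the gap in the resistant cultures is an interaction over 14457 rows above 0 in all 8 libraries. The fit was tested on simulated data. Figures used matplotlib 3.10.9.

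The members, 40 gene lists (895 memberships, 546 of them in the fit) and tests were chosen with earlier results of these data known. List members sharing a row count once. Genes named are the 15 called rows of largest difference in each direction (mean of at least 10 FPKM in the higher line), 12 fixed genes, up to 4 called members per list, and list members at 0 in one line and at least 50 FPKM in both libraries of the other, of which examples are given; some of these genes are not reported here. Joined or overlapping genes are uncertain, since the kit does not mark strand. Alternatives were other rescalings, pseudocounts, filters, no trend, a replicate block, all 8 libraries and each library left out.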

Additional observations from a re-analysis of the deposited data

Results flagged for a closer look

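For 18 named genes the gap between HCC827 and HCC4006 differed between the resistant and the DMSO cultures, by limma's interaction term with an adjusted p below 0.05; the values are log2, resistant gap minus DMSO gap, and come from 2 libraries a group. Genes higher in HCC827 DMSO whose gap was lower between the resistant cultures were ABCC2 (-5.41), PAG1 (-5.58), RASGRF2 (-4.22), ZNF704 (-6.15) and ABCG2 (-7.05).

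Genes lower in HCC827 DMSO whose gap moved upward were SMARCA2 (3.89), BEX4 (3.40), SMARCA1 (5.88), DHRS3 (9.44), EMB (4.62), ENOSF1 (5.30), WFDC2 (11.84), ITGB4 (3.00) and ALDH3B1 (3.11). SMARCA2 had 39.7 and 16.7 rescaled FPKM in resistant HCC827, against 434 and 583 in resistant HCC4006. DHRS3 had 401 and 337 in resistant HCC827, against 42.9 and 61.5 in resistant HCC4006.

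ITGB6, higher in HCC827 DMSO, had a gap larger by 4.92 between the resistant cultures. ERBB3 (4.14), CDH1 (8.63) and ZEB1 (-3.47) were not called between the DMSO cultures. All of these values share the DMSO libraries that chose most of the genes, and no cause was tested.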

How the results depend on the processing

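The 481 calls (215 higher, 266 lower in HCC827) became 319 without a variance trend (168 lower), 1588 with the replicate block by column letter (697 higher, 891 lower) and 1617 with all 8 libraries in the fit (694 higher, 923 lower, of 14457 rows). Of the 481, 295, 481 and 427 were called in these fits. Other rescalings, pseudocounts and filters gave between 368 and 570 calls. Leaving out 1 library gave between 0 and 2228 calls, between 0 and 1144 of them higher and between 0 and 1084 lower. The cause was not tested. The letters were not shown to pair the libraries: the correlation of A minus B between the lines was 0.33 over 15230 rows, from 2 pairs.

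The 224 changed gaps became 425 with the replicate block, and between 18 and 1278 with 1 library left out. Among named genes, signs turned in 3 without a call: with 1 library left out ERBB3 ran between -0.37 and 0.95 (negative without HCC827 A or HCC4006 B, where it was -0.20), CDH1 between -0.33 and 0.36 (-0.09 without HCC827 A) and ZEB1 between -0.15 and 0.68, and CDH1 was -0.0015 without rescaling. Of 74 called named rows, 56 were called without the trend. Among the 74, 35 have 1 name on a locus of their own, and all 35 were called in the fit of such rows. The other named rows share a row or a locus with another gene, so their levels are less certain. With 1 library left out, the number still called depended on which library it was. Rows at 0 in one line numbered 807 for HCC827 and 597 for HCC4006 at a mean of at least 10 FPKM in the other. Depth is unknown, so rows near 0 carry the least certainty.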
